A study of Homo sapiens with 12 samples.

Results

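Axon guidance ligands and receptors were followed across 4 forms of SK-N-SH, a human neuroblastoma cell line. The genes were chosen by name, as every gene whose symbol in the platform table of the array belongs to the semaphorins, plexins, neuropilins, ephrins, Eph receptors, slits, SLITRK proteins, ROBO receptors, numbered netrins or UNC5 receptors. This gave 75 of the 20046 genes with 1 symbol on the Illumina bead array, read by 121 of its 47323 probes. Of these, 48 genes had a probe detected on at least 1 array (detection p-value below 0.01 against the negative control probes) and were tested, and 27 were detected on no array. Among all genes 12093 of 20046 were tested.

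The 12 arrays formed 4 groups of 3. DoxR-v cells were selected with rising doses of doxorubicin, a DNA-intercalating anthracycline, and received pulses of SAHA (vorinostat, a histone deacetylase inhibitor) at each log step of the dose. The DoxR cells went through the same selection without SAHA. Both were called resistant once they had survived 5 passages at about 2 log units above the IC50 of doxorubicin, the half-maximal inhibitory concentration. WT-v cells were parental cells that received SAHA alone, at the dose that inhibits by 25%, which was also the dose in DoxR-v. WT cells were the untreated parental line from which the others were derived. Each group was 1 cell population, so a difference between groups is a difference between these populations and cannot be assigned to a drug. RNA came from triplicate specimens, and nothing in the sources used here states that these were separate cultures, so p-values measure only the spread between the arrays of a group. How long before RNA isolation the last SAHA pulse was given is not stated in those sources.

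Axon guidance molecules steer growing nerve fibres and migrating neural crest cells, the embryonic source of the sympathetic neuroblasts from which neuroblastoma arises. Secreted semaphorins bind neuropilins, which signal through plexins, while membrane semaphorins bind plexins directly. Ephrins are tethered to the cell surface and activate the Eph receptor tyrosine kinases of neighbouring cells, and can also signal back into the cell that carries them. Slits repel through ROBO receptors. Netrins attract through DCC and repel through UNC5 receptors, and UNC5 receptors without netrin can trigger apoptosis. SLITRK proteins carry leucine-rich repeats like those of slits and act at synapses and on neurite growth. A pair of genes met the naming rule without belonging to these families, namely UNC50, a Golgi and inner nuclear membrane protein, and UNC5CL, a death-domain protein related to the UNC5 receptors in sequence.

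The promoters of 6 genes are shown because the results turn on these genes. SLITRK1, SLITRK6 and SLITRK5 lie in that order on chromosome 13. SLITRK6 was the only protein-coding gene on the platform between SLITRK1 and SLITRK5. All 3 were higher in WT-v than in WT. EPHB4 had the pattern of SLITRK1 over the 4 groups, EPHA5 was detected in DoxR-v and in no other group, and UNC5A had the largest fall in DoxR. Each sequence is the 250 bases before the gene start on the gene's strand, taken from RefSeq (GRCh38.p14). Capitals mark the GC box GGGCGG or its reverse complement CCGCCC, the motif of the Sp1 family of factors.
SLITRK1: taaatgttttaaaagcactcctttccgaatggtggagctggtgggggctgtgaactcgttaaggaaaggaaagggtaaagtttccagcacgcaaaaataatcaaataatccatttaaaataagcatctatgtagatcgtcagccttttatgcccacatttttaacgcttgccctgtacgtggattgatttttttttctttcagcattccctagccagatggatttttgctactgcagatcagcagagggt
SLITRK6: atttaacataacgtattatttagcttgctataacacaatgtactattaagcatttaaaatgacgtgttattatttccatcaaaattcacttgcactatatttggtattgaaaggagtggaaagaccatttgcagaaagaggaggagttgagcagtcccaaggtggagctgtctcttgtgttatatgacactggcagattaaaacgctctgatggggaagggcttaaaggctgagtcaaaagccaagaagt
SLITRK5: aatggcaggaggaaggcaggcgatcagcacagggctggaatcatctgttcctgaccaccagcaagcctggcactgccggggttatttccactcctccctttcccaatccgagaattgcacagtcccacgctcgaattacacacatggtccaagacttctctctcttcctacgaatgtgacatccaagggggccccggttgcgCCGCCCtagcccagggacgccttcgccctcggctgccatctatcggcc
EPHB4: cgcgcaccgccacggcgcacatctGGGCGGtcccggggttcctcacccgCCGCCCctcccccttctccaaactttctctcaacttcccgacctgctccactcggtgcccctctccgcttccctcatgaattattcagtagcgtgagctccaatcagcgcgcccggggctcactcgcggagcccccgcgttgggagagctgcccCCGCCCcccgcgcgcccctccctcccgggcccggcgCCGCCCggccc
EPHA5: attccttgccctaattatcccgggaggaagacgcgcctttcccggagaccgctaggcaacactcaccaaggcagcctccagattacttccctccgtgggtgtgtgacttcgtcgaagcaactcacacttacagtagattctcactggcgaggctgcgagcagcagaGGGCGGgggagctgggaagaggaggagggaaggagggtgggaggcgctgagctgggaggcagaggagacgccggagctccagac
UNC5A: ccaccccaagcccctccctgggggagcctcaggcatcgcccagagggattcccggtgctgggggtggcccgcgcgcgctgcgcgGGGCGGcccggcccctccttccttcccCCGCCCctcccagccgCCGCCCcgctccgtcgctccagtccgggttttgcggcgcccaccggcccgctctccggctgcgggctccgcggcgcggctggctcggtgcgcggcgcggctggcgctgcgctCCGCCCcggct

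These windows are chr13:83882475-83882724 (minus strand) for SLITRK1, chr13:85799420-85799669 (minus strand) for SLITRK6 and chr13:87671121-87671370 (plus strand) for SLITRK5. EPHB4 is at chr7:100827524-100827773 (minus strand), EPHA5 at chr4:65670490-65670739 (minus strand) and UNC5A at chr5:176810309-176810558 (plus strand). The SLITRK1 and SLITRK6 windows were rich in A and T, with 40.4% and 37.6% G or C, 6 and 3 CpG dinucleotides and no GC box. The SLITRK5 window held 1 GC box and 13 CpG at 59.2% G or C. The EPHB4 window was 72.8% G or C with 29 CpG and 4 GC boxes, and the UNC5A window 81.2% with 36 CpG and 4 GC boxes. In the EPHA5 window there was 1 GC box and 14 CpG at 61.2% G or C. Promoter sequence was matched for 65 of the 75 genes, and 46 of those 65 windows (70.8%) held a GC box on either strand, against 42.6% of all 35116 promoter windows in the table, which include those of non-coding genes. The median window of the 65 genes was 63.6% G or C, against 58% over all windows. The letters TATAAA or TTTATA occurred in 1 of the 65 (1.54%) and in 10.7% of all windows. Such matches describe the sequence and are not evidence of binding.

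Between 14969 and 17220 probes were detected per array. Correlations between arrays ran between 0.982 and 0.992 within groups and between 0.936 and 0.971 across groups, and WT replicate 3 lay apart from WT replicates 1 and 2 on the second principal component (26.1 against 46.3 and 50.3). The cells expressed the neuroblast markers that the cell line name calls for. Of 15 such markers 13 were tested, and all 13 were detected on every array of DoxR-v, WT-v and WT and 12 in DoxR, where TH was not detected. The 13 summed to 42170 to 43010 in DoxR, against 49010 to 56220 in WT. Their sums were 54130 to 63790 in DoxR-v and 59270 to 64330 in WT-v. By the limma thresholds given below, 3 were higher and 3 lower in DoxR than in WT, 2 and 1 in DoxR-v, and 3 and 1 in WT-v. Summed signals of other marker lists also moved with the groups. The 8 tested of 11 mesenchymal markers summed to 12930 to 13870 in DoxR, against 4507 to 5094 in WT. The sums were 6425 to 7972 in DoxR-v and 7154 to 8336 in WT-v. Not detected were COL1A1 in DoxR-v, DoxR and WT, PRRX1 in DoxR-v, DoxR and WT-v, COL3A1 in DoxR-v and WT, and CD44 in WT-v. Single mesenchymal markers did not all follow the sums. By the same thresholds, 4 were higher and 1 lower in DoxR than in WT, and 4 and 2 in WT-v. In DoxR-v 2 were higher and 2 lower, with a median log2 difference of -0.207. The 4 tested of 7 fibroblast and endothelial markers summed to 352.8 to 390.5 in DoxR, against 1986 to 2870 in WT. The sums were 5763 to 8453 in DoxR-v and 4021 to 4696 in WT-v. Of these markers, 1 was higher and 3 lower in DoxR than in WT, 2 and 1 in DoxR-v, and 3 and 0 in WT-v. Of 8 Schwann and glial markers only ERBB3 was tested, with signals of 46.8 to 64.9 in DoxR-v, 52.8 to 64.5 in DoxR, 21.2 to 26.0 in WT-v and 22.4 to 23.7 in WT. The 2 tested of 7 blood cell markers summed to at most 550.4. The part of these marker levels in the results below was not tested, and in cultures measured in bulk a smaller share of cells and less RNA per cell cannot be told apart.

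WT cells had the fewest detected axon guidance genes. With a signal on all 3 arrays of a group, 28 of the 75 genes were detected in DoxR-v, 31 in DoxR, 31 in WT-v and 23 in WT, that is 37.3%, 41.3%, 41.3% and 30.7%. Over all genes the shares were 46.7%, 47%, 47.7% and 44.7%, so the axon guidance genes lay below the platform in each group. At a detection p-value below 0.05 the counts were 37, 37, 36 and 28, that is 49.3%, 49.3%, 48% and 37.3%, against 51.3%, 51%, 51.9% and 48.8% of all genes. A core of 20 genes was detected in all 4 groups, namely EFNA1, EFNB2, EFNB3, EPHA10, NRP1, PLXNA1, PLXNA2, PLXNA4, PLXNB2, ROBO1, SEMA3E, SEMA4B, SEMA4C, SEMA4D, SEMA6A, SLIT3, SLITRK5, UNC50, UNC5A and UNC5B. Another 4 were detected in 3 groups, 6 in 2 groups and 9 in a single group, and 9 reached detection only on scattered arrays of a group. Those detected on all arrays of DoxR alone were EFNA4, EPHA8, PLXNB1, PLXNB3 and SEMA3C, those of DoxR-v alone EPHA5 and EPHA6, and those of WT-v alone EPHB3 and SEMA4A. The 27 genes with no detected array included NTN1, NTN3 and NTN4, ROBO2 and ROBO4, SLIT1, the ephrins EFNA2, EFNA3 and EFNA5, EPHA2, EPHA3, EPHA4, EPHA7, EPHB1 and EPHB6, and PLXNC1. A probe without signal says only that this probe did not rise above background. A gene that was tested only because of its signal in a high group had to differ between groups, so counts over the 48 genes describe those genes and not the whole families.

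**Figure D1:**
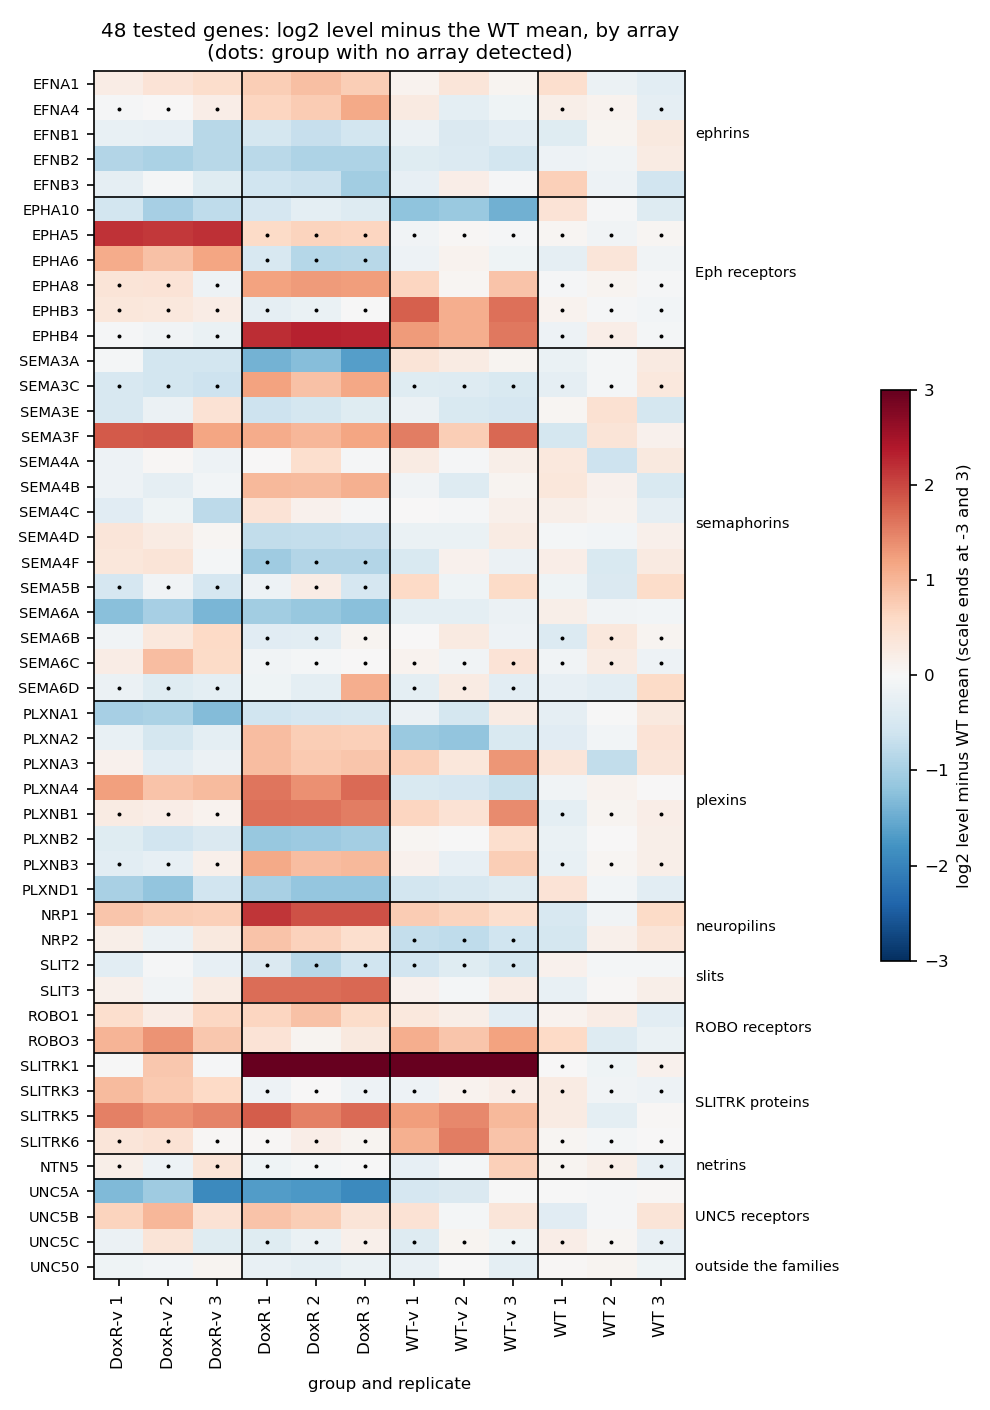
Log2 level of each of the 48 tested genes minus its WT mean, for the 3 arrays each of DoxR-v, DoxR, WT-v and WT (columns), with genes in rows by family. Dots mark groups in which no array of that gene was detected, and red is higher and blue lower than the WT mean. SLITRK1 is the darkest row in DoxR and WT-v, and UNC5A, SEMA6A and EFNB2 are blue in both resistant lines.

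DoxR against WT asked what had changed in the line that met doxorubicin without SAHA, and this comparison held the most called axon guidance genes of those with WT. Limma called 20 of the 48 genes higher (41.7%) and 12 lower (25%), with thresholds of 0.1 on the adjusted p and 1.5 on the fold, beside 17.1% higher and 16% lower among all 12093 tested genes. At an unadjusted p below 0.05, with no fold threshold, 20 were higher and 13 lower. The arrays of the 2 groups did not overlap for 34 of the 48 genes, a background share of 56.1%. The median difference was 0.13 on the log2 scale over the 48 genes and 0.0095 over all genes. By family, 5 of 8 plexins, both neuropilins, 3 of 6 Eph receptors, 2 of 4 SLITRK proteins and 3 of 14 semaphorins were higher. Lower were 3 of 5 ephrins, 4 of 14 semaphorins and 2 of 8 plexins. Of the 20 rises, 7 had no detected WT array and are known only as bounds, and EPHA5 was detected in neither group. Of the 12 falls, 2 are bounds, and SLIT2 has no bound above 1. The filter could admit such genes through their high group, so the family counts describe the tested genes only. Under median scaling 19 were higher and 7 lower, and without background correction 12 of the 32 calls were kept.

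DoxR-v was set against WT to ask the same of the line selected with doxorubicin and SAHA. In DoxR-v 9 genes were called higher (18.8%) and 6 lower (12.5%), beside 12.6% higher and 11.8% lower over all genes. Unadjusted, 11 were higher and 11 lower at p below 0.05. No overlap was seen for 19 genes, with a background of 46.2%. Under median scaling 13 were higher and 3 lower. WT-v against WT asked what differed in parental cells that had received SAHA alone. There 10 genes were called higher (20.8%) and 3 lower (6.25%), beside 14% and 12.3% over all genes, with 11 and 8 at an unadjusted p below 0.05. The arrays of 17 genes did not overlap, with a background of 45.2%. Under median scaling 15 were higher and 1 lower. These 3 comparisons share the WT arrays. In at least 1 of them 38 of the 48 genes were called, and NRP1, SEMA3F and SLITRK5 were called higher in all 3. Calls in opposite directions were made for EPHA6, which was higher in DoxR-v and lower in DoxR, and for PLXNA2 and NRP2, which were higher in DoxR and lower in WT-v by the probe that stands for each, while no other probe of either was called lower in WT-v. Called in none of the 6 comparisons made were NTN5, SEMA4A, SEMA6B, SEMA6D, UNC50 and UNC5C.

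**Figure D2:**
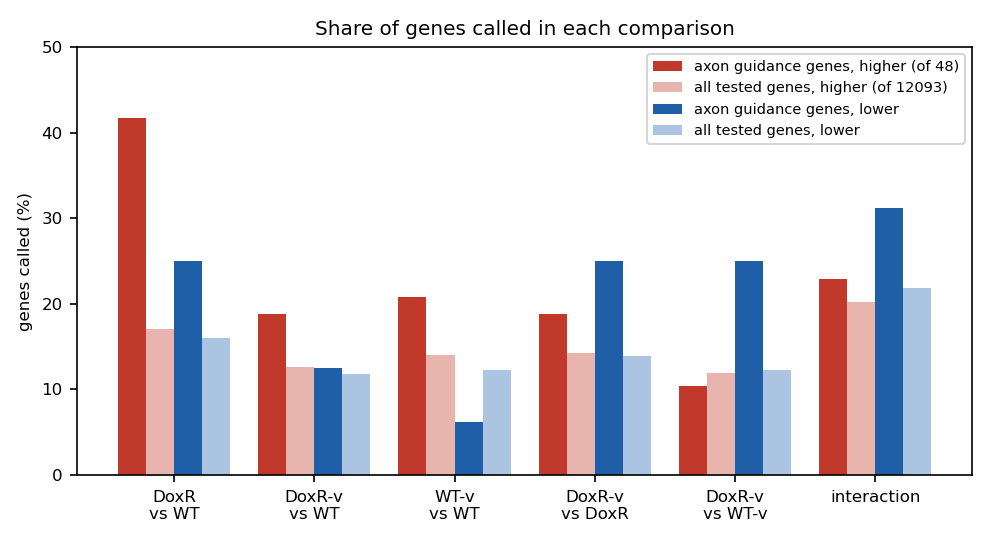
Share of genes called higher (red) or lower (blue) in each of the 6 comparisons, as a percent of the 48 tested axon guidance genes (dark bars) and of all 12093 tested genes (pale bars). In DoxR vs WT the dark red bar stands at 41.7% beside 17.1% for all genes, and in WT-v vs WT the dark blue bar stands at 6.25% beside 12.3%.

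Among the SLITRK proteins, SLITRK1, which promotes neurite outgrowth, gave the largest differences of all the genes. Its log2 signal was 4.60, 5.43 and 4.59 on the DoxR-v arrays, 8.40, 8.33 and 8.54 on the DoxR arrays, 8.18, 7.79 and 7.98 on the WT-v arrays and 4.62, 4.49 and 4.75 on the WT arrays. DoxR and WT-v were high and DoxR-v and WT low, with no overlap between the high and low groups, and no WT array and 1 DoxR-v array was detected. SLITRK1 was at least 8.08-fold higher in DoxR than in WT (log2 3.80, SE 0.20, adjusted p = 1.22e-08) and at least 5.95-fold higher in WT-v than in WT (log2 3.36, adjusted p = 1.02e-07). Such a bound compares the mean of the bright group with the mean of the dim group after each dim array is raised to the lowest level among its detected probes. SLITRK1 was also called lower in DoxR-v than in DoxR (log2 -3.55, adjusted p = 2.47e-08) and than in WT-v (log2 -3.11), and no fold is given because 1 of 3 DoxR-v arrays was detected.

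SLITRK5, a receptor partner of TrkB in neurons, was detected everywhere and was lowest in WT. It read 8.43, 8.30 and 8.40 in DoxR-v, 8.74, 8.44 and 8.61 in DoxR, 8.16, 8.35 and 7.89 in WT-v and 7.16, 6.63 and 6.97 in WT. All 9 arrays of the drug-exposed cells lay above all WT arrays. Its rise was 2.75-fold in DoxR-v, 3.20-fold in DoxR and 2.32-fold in WT-v (log2 1.46, 1.68 and 1.22, SE 0.16 each, adjusted p = 2.31e-05, 3.50e-06 and 0.000114). SLITRK6, which is needed for the innervation of the inner ear, read 4.71, 4.77 and 4.38 in DoxR-v, 4.38, 4.53 and 4.43 in DoxR, 5.40, 5.88 and 5.20 in WT-v and 4.39, 4.28 and 4.35 in WT. Only WT-v stood out, with 2 of its 3 arrays detected, and the rise over WT was at least 1.06-fold (log2 1.16, adjusted p = 0.000225). SLITRK3, which organizes inhibitory synapses and lies on chromosome 3, was detected on 2 DoxR-v arrays alone and was higher there than in DoxR (at least 1.05-fold) and in WT-v (at least 1.09-fold), with no bound above 1 against WT (log2 0.78, adjusted p = 0.00172).

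**Figure D3:**
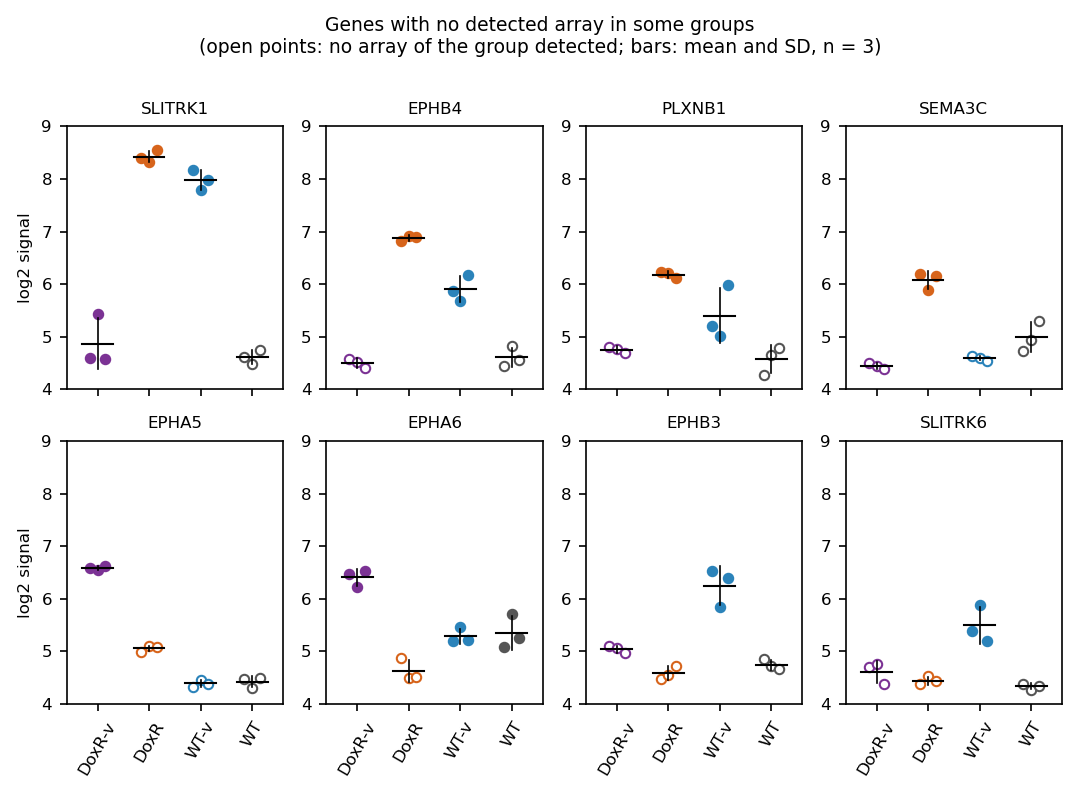
Log2 signal by array for 8 genes that had no detected array in some groups, with DoxR-v, DoxR, WT-v and WT on the x axis. Open points are groups with no detected array, horizontal bars are means and vertical bars SD (n = 3). SLITRK1 and EPHB4 are high in DoxR and WT-v, EPHA5 and EPHA6 in DoxR-v, SEMA3C in DoxR, and EPHB3 and SLITRK6 in WT-v.

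Among the Eph receptors, EPHB4, the receptor of ephrin-B2 best known from veins, followed SLITRK1. Its signal was 4.58, 4.51 and 4.41 in DoxR-v, 6.82, 6.92 and 6.90 in DoxR, 5.88, 5.69 and 6.18 in WT-v and 4.45, 4.82 and 4.56 in WT. DoxR was highest and WT-v between, and neither DoxR-v nor WT had a detected array. EPHB4 was at least 2.77-fold higher in DoxR than in WT (log2 2.27, SE 0.15, adjusted p = 7.64e-08) and at least 1.42-fold higher in WT-v than in WT (log2 1.31, adjusted p = 3.09e-05). Against DoxR it was at least 3.00-fold lower in DoxR-v (log2 -2.38, adjusted p = 5.37e-08), and against WT-v at least 1.53-fold lower (log2 -1.41). Without background correction the EPHB4 calls in WT-v against WT (log2 0.51) and in DoxR-v against WT-v (log2 -0.56) ended. Its ligand EFNB2 was by contrast lower in both resistant lines, with 9.39, 9.32 and 9.44 in DoxR-v, 9.47, 9.33 and 9.34 in DoxR, 9.90, 9.85 and 9.72 in WT-v and 10.12, 10.17 and 10.51 in WT. No DoxR-v or DoxR array reached the lowest WT-v or WT array. EFNB2 was lower by 1.85-fold in both DoxR-v and DoxR (log2 -0.89 and -0.88, SE 0.13 each, adjusted p = 0.000223 and 0.000126). Median scaling ended that call in DoxR-v (log2 -0.51).

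A pair of EphA receptors of the nervous system was highest in DoxR-v. EPHA5, a receptor of ephrin-As in retinal and forebrain axons, read 6.59, 6.55 and 6.62 in DoxR-v, 5.00, 5.10 and 5.08 in DoxR, 4.33, 4.46 and 4.39 in WT-v and 4.48, 4.31 and 4.49 in WT. DoxR-v alone was detected, and it was at least 2.26-fold above WT (log2 2.16, SE 0.11, adjusted p = 2.08e-08). It was also at least 2.47-fold above DoxR and at least 2.57-fold above WT-v (log2 1.53 and 2.19). On the authors' normalized values these calls ended (log2 0.47 against WT, 0.35 against DoxR and 0.48 against WT-v). DoxR passed the test against WT too (log2 0.63, adjusted p = 0.000529), but neither group was detected and no fold is given. EPHA6, a close relative of EPHA5, read 6.48, 6.23 and 6.53 in DoxR-v, 4.87, 4.49 and 4.52 in DoxR, 5.20, 5.46 and 5.22 in WT-v and 5.09, 5.71 and 5.26 in WT. All DoxR-v arrays lay above all others, and no DoxR array, 2 WT-v arrays and 1 WT array were detected. It was higher in DoxR-v than in WT (log2 1.06, adjusted p = 0.000549) and WT-v (log2 1.12), and at least 2.19-fold higher than in DoxR (log2 1.78, adjusted p = 4.26e-06). In DoxR against WT it was lower by at least 1.05-fold (log2 -0.73), a call that ended without WT replicate 2 (log2 -0.55).

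The remaining Eph receptors each had another pattern. EPHB3, which guides commissural axons, was detected in WT-v alone, at 6.53, 5.84 and 6.39, against 5.09, 5.06 and 4.97 in DoxR-v, 4.47, 4.55 and 4.73 in DoxR and 4.86, 4.72 and 4.66 in WT. WT-v did not overlap any other group, and was at least 1.79-fold above WT (log2 1.51, SE 0.17, adjusted p = 2.64e-05) and at least 1.94-fold above DoxR-v. EPHA10, a receptor without kinase activity, went the other way, with 6.23, 5.79 and 6.03 in DoxR-v, 6.29, 6.50 and 6.41 in DoxR, 5.57, 5.66 and 5.35 in WT-v and 7.20, 6.76 and 6.41 in WT. It was lowest in WT-v, 2.39-fold below WT (log2 -1.26, SE 0.19, adjusted p = 0.000272), and was 1.71-fold below WT in DoxR-v (log2 -0.77, adjusted p = 0.0072). The call in DoxR-v was lost without WT replicate 1 (log2 -0.57) and under median scaling (log2 -0.34). The second EPHA10 probe was called lower in DoxR-v (log2 -0.79), DoxR (log2 -1.04, adjusted p = 0.000729) and WT-v (log2 -0.90), whereas the first was not called in DoxR. EPHA8 was detected on all arrays of DoxR alone and was at least 1.55-fold higher there than in WT (log2 1.24). The other EPHA8 probe, annotated to another transcript, was not called (log2 -0.45, adjusted p = 0.188).

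Against WT the other ephrins were called in DoxR alone. EFNA1 (log2 0.79) and EFNA4 (at least 1.31-fold) were higher in DoxR than in WT, and EFNB1 (log2 -0.59) and EFNB3 (log2 -0.76) lower. EFNB1 lost its call without WT replicate 2 (-0.55), WT replicate 3 (-0.45) or DoxR replicate 2 (-0.54), and EFNB3 without WT replicate 1 (-0.40) or DoxR replicate 3 (-0.62).

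Among the semaphorin receptors, NRP1, which binds class 3 semaphorins and VEGF, rose most. The probe that represents it is annotated to the full-length transcript and read 9.25, 9.16 and 9.12 in DoxR-v, 10.55, 10.33 and 10.34 in DoxR, 9.19, 9.08 and 8.93 in WT-v and 7.95, 8.30 and 9.0 in WT. DoxR lay above all other arrays, and the WT arrays were spread widely. NRP1 was 3.97-fold higher in DoxR (log2 1.99, SE 0.21, adjusted p = 7.61e-06), 1.70-fold higher in DoxR-v (log2 0.76, adjusted p = 0.0142) and 1.57-fold higher in WT-v (log2 0.65, adjusted p = 0.0292) than in WT. Without WT replicate 1 the calls in DoxR-v (log2 0.53) and WT-v (log2 0.41) ended, as did that in WT-v without WT-v replicate 1 (log2 0.58). Averaging the probes of the gene turned the direction in WT-v (log2 -0.19).

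A second NRP1 probe, annotated to a transcript that encodes a soluble form without the membrane anchor, did not follow the first. It read 9.17, 9.17 and 8.67 in DoxR-v, 8.76, 8.70 and 8.71 in DoxR, 6.55, 6.79 and 6.90 in WT-v and 7.87, 7.54 and 7.90 in WT. Both resistant lines were high and WT-v lowest, with no overlap between WT-v and WT. In DoxR against WT both probes were called higher (log2 0.95 for the second, adjusted p = 0.000438), but in WT-v against WT the second was called lower (log2 -1.03, SE 0.16, adjusted p = 0.000426), opposite to the first. Of 13 genes with several tested probes NRP1 was the only one with probes called in opposite directions, there and in the difference between SAHA effects given below. By the probe that stands for it, NRP2, the receptor of SEMA3F, read 5.67, 5.32 and 5.80 in DoxR-v, 6.35, 6.20 and 5.99 in DoxR, 4.79, 4.73 and 4.90 in WT-v and 4.98, 5.64 and 5.88 in WT. By this probe WT-v had no detected array. NRP2 was 1.60-fold higher in DoxR than in WT (log2 0.68, adjusted p = 0.0186), which ended without WT replicate 1 (log2 0.42), and at least 1.22-fold lower in WT-v than in WT (log2 -0.69, adjusted p = 0.0203), which ended without WT replicate 3 (log2 -0.50). The other NRP2 probes, annotated to other transcripts, were not called in WT-v (log2 0.48 and -0.10), and 1 of them was called higher in DoxR (log2 1.29). Averaging the probes ended the call in WT-v (log2 -0.11). By the first probe DoxR-v was at least 1.30-fold above WT-v (log2 0.79), a call that also ended with averaged probes (log2 0.58).

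Plexins are the signalling receptors of semaphorins, and 7 of the 8 measured were called in DoxR. PLXNA4, a co-receptor for SEMA3A and SEMA6A, read 8.07, 7.70 and 7.79 in DoxR-v, 8.44, 8.21 and 8.54 in DoxR, 6.38, 6.34 and 6.17 in WT-v and 6.73, 6.94 and 6.86 in WT. By this probe, the brightest of the gene, both resistant lines lay above both parental groups. The rise was 2.94-fold in DoxR against WT (log2 1.55, SE 0.14, adjusted p = 1.96e-06), 2.01-fold in DoxR-v against WT (log2 1.01, adjusted p = 0.000152) and 2.94-fold in DoxR-v against WT-v (log2 1.56). With its probes averaged, PLXNA4 was no longer called in DoxR-v against WT (log2 0.39). PLXNB1, a SEMA4D receptor, read 4.81, 4.77 and 4.69 in DoxR-v, 6.23, 6.21 and 6.11 in DoxR, 5.21, 5.02 and 5.99 in WT-v and 4.28, 4.66 and 4.78 in WT. It was highest in DoxR, at least 1.71-fold above WT (log2 1.61, SE 0.21, adjusted p = 5.63e-05), with 2 of 3 arrays detected in WT-v and none in DoxR-v and WT. The call in WT-v against WT (log2 0.83, with no bound above 1) ended without WT-v replicate 3 (log2 0.54).

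PLXNB2, a broad semaphorin 4 receptor, read 8.30, 8.08 and 8.23 in DoxR-v, 7.51, 7.57 and 7.64 in DoxR, 8.73, 8.64 and 9.17 in WT-v and 8.46, 8.68 and 8.84 in WT. DoxR was lowest without overlap and 2.12-fold below WT (log2 -1.09, SE 0.16, adjusted p = 0.000105). PLXND1, the SEMA3E receptor, read 5.27, 5.08 and 5.68 in DoxR-v, 5.27, 5.10 and 5.09 in DoxR, 5.69, 5.78 and 5.87 in WT-v and 6.67, 6.17 and 5.94 in WT. Only 1 array each of DoxR-v and DoxR was detected, and PLXND1 was called lower in both (log2 -0.91 in DoxR-v and -1.10 in DoxR, adjusted p = 0.00279 and 0.000457). Median scaling ended the call in DoxR-v (log2 -0.56), and dropping the background correction ended both (log2 -0.40 and -0.47).

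PLXNA1, a partner of neuropilins, read 7.17, 7.20 and 6.86 in DoxR-v, 7.55, 7.64 and 7.67 in DoxR, 7.97, 7.61 and 8.41 in WT-v and 7.89, 8.13 and 8.44 in WT. DoxR-v was lowest, 2.11-fold below WT (log2 -1.08, SE 0.19, adjusted p = 0.00111) and 1.89-fold below WT-v (log2 -0.92). PLXNA2, a SEMA6A receptor, read 6.70, 6.40 and 6.61 in DoxR-v, 7.84, 7.66 and 7.63 in DoxR, 5.81, 5.73 and 6.45 in WT-v and 6.58, 6.84 and 7.33 in WT. It was 1.73-fold above WT in DoxR (log2 0.79, adjusted p = 0.0094) and 1.90-fold below WT in WT-v (log2 -0.92, adjusted p = 0.00492, or log2 -0.50 and not called under median scaling). Its other probe was not called in DoxR (log2 0.04) or WT-v (log2 -0.31), and averaging the probes ended the DoxR call (log2 0.42). PLXNA3 (log2 0.84) and PLXNB3 (at least 1.29-fold) were also higher in DoxR than in WT, and the PLXNA3 call ended without WT replicate 2 (log2 0.47).

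**Figure D4:**
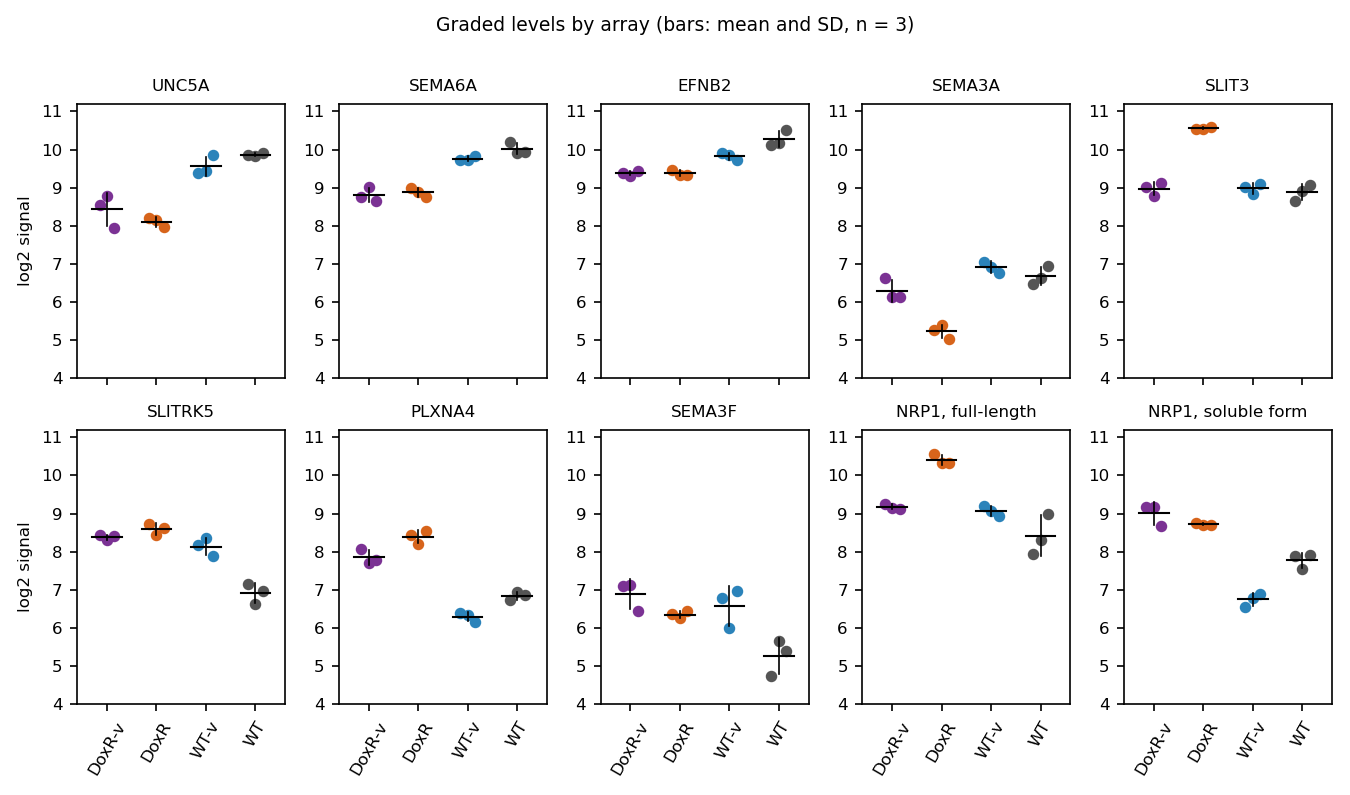
Log2 signal by array for 8 genes and for both NRP1 probes, with DoxR-v, DoxR, WT-v and WT on the x axis. Points are arrays, horizontal bars means and vertical bars SD (n = 3). UNC5A, SEMA6A and EFNB2 are lower in both resistant lines, SLIT3 stands out in DoxR, and the NRP1 probe of the soluble form is lowest in WT-v, where the full-length probe is above most WT arrays.

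Of the secreted semaphorins, SEMA3A, the classic growth cone repellent and an NRP1 ligand, was lowest in DoxR. It read 6.63, 6.13 and 6.12 in DoxR-v, 5.26, 5.39 and 5.03 in DoxR, 7.06, 6.93 and 6.76 in WT-v and 6.47, 6.62 and 6.94 in WT. DoxR was lowest without overlap, 2.73-fold below WT (log2 -1.45, SE 0.17, adjusted p = 2.46e-05), and DoxR-v was 2.09-fold above DoxR (log2 1.06, adjusted p = 0.000353). SEMA3F, an NRP2 ligand, was higher than WT in every drug-exposed group, with 7.10, 7.13 and 6.44 in DoxR-v, 6.36, 6.25 and 6.44 in DoxR, 6.79, 5.99 and 6.97 in WT-v and 4.74, 5.65 and 5.39 in WT. No WT array reached another group, and 1 WT array was detected. SEMA3F rose in DoxR-v, DoxR and WT-v (log2 1.63, 1.09 and 1.33, SE 0.28 each, adjusted p = 0.000691, 0.00669 and 0.00263). The DoxR call ended without background correction (log2 0.47), and all 3 ended on the authors' normalized values (log2 0.43, 0.24 and 0.33). SEMA3C, which guides cardiac neural crest, read 4.51, 4.44 and 4.39 in DoxR-v, 6.20, 5.88 and 6.15 in DoxR, 4.64, 4.61 and 4.55 in WT-v and 4.73, 4.95 and 5.31 in WT. DoxR alone was detected, at least 1.59-fold above WT (log2 1.08, adjusted p = 8.28e-05).

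SEMA3C, SEMA3E, SEMA3A and SEMA3D lie in that order on chromosome 7 on the side of the drug efflux pump gene ABCB1. In DoxR against WT SEMA3C was higher and SEMA3A lower, SEMA3E was not called (log2 -0.50, adjusted p = 0.13) and SEMA3D had no detected array. The second SEMA3E probe was called higher (log2 1.19, adjusted p = 0.000229), so the level of SEMA3E in DoxR is uncertain.

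Among the membrane semaphorins, SEMA6A, a plexin-A ligand that keeps neural crest derived boundary cap cells in place, was lower in both resistant lines. It read 8.77, 9.02 and 8.65 in DoxR-v, 8.99, 8.88 and 8.76 in DoxR, 9.72, 9.72 and 9.84 in WT-v and 10.19, 9.92 and 9.95 in WT. Resistant and parental arrays did not overlap. The fall was 2.31-fold in DoxR-v against WT (log2 -1.21, SE 0.13, adjusted p = 2.53e-05), 1.93-fold in DoxR-v against WT-v (log2 -0.95, adjusted p = 0.000175) and 2.21-fold in DoxR against WT (log2 -1.14, adjusted p = 2.12e-05). SEMA4F read 6.19, 6.25 and 5.81 in DoxR-v, 4.79, 4.98 and 4.97 in DoxR, 5.40, 5.99 and 5.68 in WT-v and 6.05, 5.41 and 6.12 in WT. By this probe it was not detected in DoxR, where it was at least 1.5-fold below WT (log2 -0.95, adjusted p = 0.00231), a call that ended with averaged probes (log2 -0.38). Its other probe, detected on 1 DoxR array, was not called (log2 0.19). SEMA4D, the PLXNB1 ligand, read 7.86, 7.75 and 7.55 in DoxR-v, 6.74, 6.77 and 6.79 in DoxR, 7.29, 7.28 and 7.73 in WT-v and 7.43, 7.41 and 7.64 in WT. DoxR was lowest without overlap, 1.65-fold below WT (log2 -0.72, adjusted p = 0.00153), and DoxR-v was 1.93-fold above DoxR (log2 0.95). The SEMA4D call in DoxR against WT ended under median scaling (log2 -0.40) and without background correction (log2 -0.47). SEMA4B was 2.00-fold higher in DoxR than in WT (log2 1.00, adjusted p = 0.000852), but its other probe was not called (log2 -0.16).

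Against WT, slits and ROBO receptors were higher where they were called, apart from SLIT2. SLIT3, a secreted repellent, read 9.03, 8.78 and 9.12 in DoxR-v, 10.55, 10.55 and 10.61 in DoxR, 9.02, 8.83 and 9.10 in WT-v and 8.66, 8.92 and 9.07 in WT. By this probe DoxR stood above all other arrays and the rest overlapped. The other SLIT3 probe was also highest in DoxR but rose less, at 9.91, 9.74 and 9.91 against 8.64, 8.79 and 9.16 in WT. By that probe DoxR-v (8.78, 8.71 and 8.36) lay below WT-v (9.44, 8.83 and 9.53). By the first probe SLIT3 was 3.21-fold higher in DoxR than in WT (log2 1.68, SE 0.14, adjusted p = 9.68e-07). It was 3.01-fold lower in DoxR-v than in DoxR (log2 -1.59, adjusted p = 1.83e-06). ROBO3, which lets commissural axons approach the midline, read 5.94, 6.27 and 5.74 in DoxR-v, 5.33, 5.02 and 5.23 in DoxR, 6.03, 5.75 and 6.14 in WT-v and 5.52, 4.54 and 4.73 in WT. It was higher in both SAHA-exposed groups than in WT, where 1 array was detected (log2 1.05 in DoxR-v and 1.04 in WT-v, SE 0.23 each, adjusted p = 0.00354 and 0.00353), with no overlap of either group with WT. ROBO1 was higher in DoxR than in WT (log2 0.69), a call that ended without WT replicate 3 (log2 0.53). SLIT2 was near background, with 1 detected array each in DoxR-v and WT, and its call in DoxR (log2 -0.62) ended without WT replicate 1 (-0.55) or DoxR replicate 2 (-0.51).

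Among the netrin receptors, UNC5A, a dependence receptor, had the largest fall in DoxR. It read 8.55, 8.79 and 7.95 in DoxR-v, 8.19, 8.14 and 7.96 in DoxR, 9.37, 9.44 and 9.85 in WT-v and 9.86, 9.84 and 9.90 in WT. The resistant lines lay below both parental groups without overlap. UNC5A fell 3.40-fold in DoxR (log2 -1.77, SE 0.19, adjusted p = 1.19e-05), 2.71-fold in DoxR-v against WT (log2 -1.44, adjusted p = 0.000124) and 2.19-fold in DoxR-v against WT-v (log2 -1.13, adjusted p = 0.000763). UNC5B, its paralogue on endothelial tip cells, was higher in both resistant lines, with log2 differences of 0.71 in DoxR-v and 0.66 in DoxR. Those calls ended without WT replicate 1 (0.53 and 0.49), without DoxR-v replicate 2 (0.56, in DoxR-v) or without DoxR replicate 1 (0.57, in DoxR). UNC5C was not called, and NTN5, the only netrin tested, was detected on 1 array.

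DoxR-v was set against DoxR to ask how the resistant lines selected with and without SAHA differed. Of the 48 genes 9 were higher (18.8%) and 12 lower (25%) in DoxR-v, beside 14.3% and 13.9% over all genes, with 11 and 16 at an unadjusted p below 0.05. For 32 genes the arrays did not overlap, with a background of 56.6%. The higher genes were EPHA6, EPHA5, SEMA4F (at least 1.75-fold), SEMA3A, SEMA4D, SLITRK3, ROBO3 (log2 0.79), PLXNB2 (log2 0.63) and SEMA6C (log2 0.62, with no bound above 1). The PLXNB2 call ended without DoxR-v replicate 1 (log2 0.58), and the SEMA4F call with averaged probes (log2 0.38). The lower genes were SLITRK1, EPHB4, SEMA3C (at least 1.72-fold, log2 -1.63), SLIT3, PLXNB1 (at least 1.85-fold), NRP1 by the full-length probe (log2 -1.23), SEMA4B (log2 -1.17), PLXNB3 (at least 1.39-fold), PLXNA2 (log2 -1.14), EPHA8 (at least 1.68-fold), PLXNA3 (log2 -0.96) and EFNA4 (at least 1.41-fold). The NRP1 call ended with averaged probes (log2 -0.47), and its second probe was not called (log2 0.28). Averaging also ended the EPHA8 call (log2 -0.28). The other EPHA8 probe went the opposite way, at 5.19, 5.36 and 5.29 in DoxR-v and 4.52, 5.15 and 4.73 in DoxR. This comparison shares the DoxR arrays with DoxR against WT.

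DoxR-v was set against WT-v to ask how resistant and parental cells differed when both had received SAHA. In DoxR-v 5 genes were higher (10.4%) and 12 lower (25%), beside 11.9% and 12.3% over all genes, with 9 and 15 at an unadjusted p below 0.05. The arrays of 23 genes did not overlap, with a background of 47.9%. Higher were EPHA5, PLXNA4, EPHA6, NRP2 and SLITRK3. Lower were SLITRK1, EPHB4, EPHB3, UNC5A, SEMA6A, PLXNA1, PLXNA3 (log2 -0.91), SLITRK6 (at least 1.15-fold), SEMA5B (log2 -0.72), PLXNB1 (at least 1.08-fold), PLXNB2 (log2 -0.64) and SEMA3A (log2 -0.62). Leaving out WT-v replicate 3 ended the calls of PLXNA3 (-0.65), PLXNB1 (-0.35), PLXNB2 (-0.48) and SEMA5B (-0.60). Leaving out DoxR-v replicate 2 ended those of PLXNB2 (-0.58) and SEMA3A (-0.54). SEMA3A also lost its call without WT-v replicate 1 (-0.55) or DoxR-v replicate 3 (-0.54), and SEMA5B without WT-v replicate 1 (-0.60), DoxR-v replicate 1 (-0.65) or DoxR-v replicate 3 (-0.65).

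Whether the SAHA difference itself differed between resistant and parental cells was tested as an interaction, the log2 difference DoxR-v minus DoxR less the log2 difference WT-v minus WT. It was positive for 11 genes (22.9%) and negative for 15 (31.2%), beside 20.2% and 21.9% over all genes, with 12 and 16 at an unadjusted p below 0.05. The largest was that of SLITRK1, at -6.92 (SE 0.29, adjusted p = 1.82e-09), since the SAHA line was the lower of the resistant pair and the higher of the parental pair. Its size and that of other genes with an undetected group are not measured sizes, because the undetected groups have no level above background. This holds for SLITRK1 in WT, EPHB4 and PLXNB1 in DoxR-v and WT, and EPHA6 in DoxR. It also holds for EPHA5 in DoxR, WT-v and WT, and for SEMA4F in DoxR by the probe that stands for it. Next came EPHB4 (-3.68, SE 0.21, adjusted p = 3.24e-08), PLXNB1 (-2.26, SE 0.30, adjusted p = 8.20e-05) and NRP1 (-1.87, SE 0.29, adjusted p = 0.000298). For NRP1 this holds for the full-length probe, and the probe of the soluble form gave 1.31 (SE 0.23, adjusted p = 0.000702). Positive values were led by EPHA6 (1.85, SE 0.25, adjusted p = 8.06e-05), EPHA5 (1.56, SE 0.16, adjusted p = 7.59e-06), SEMA4F (1.34) and SEMA4D (1.01). The other SEMA4F probe was not called (-0.25). All 4 tested SLITRK proteins, of 6 on the platform, were called, 1 positive and 3 negative. So were all 6 tested Eph receptors of 13, with 3 positive and 3 negative. EPHA5, EPHB3, SLITRK3 and SLITRK6 had detected arrays in a single group, so for them the filter had built in a difference between groups. Under median scaling 6 genes were positive and 18 negative.

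**Figure D5:**
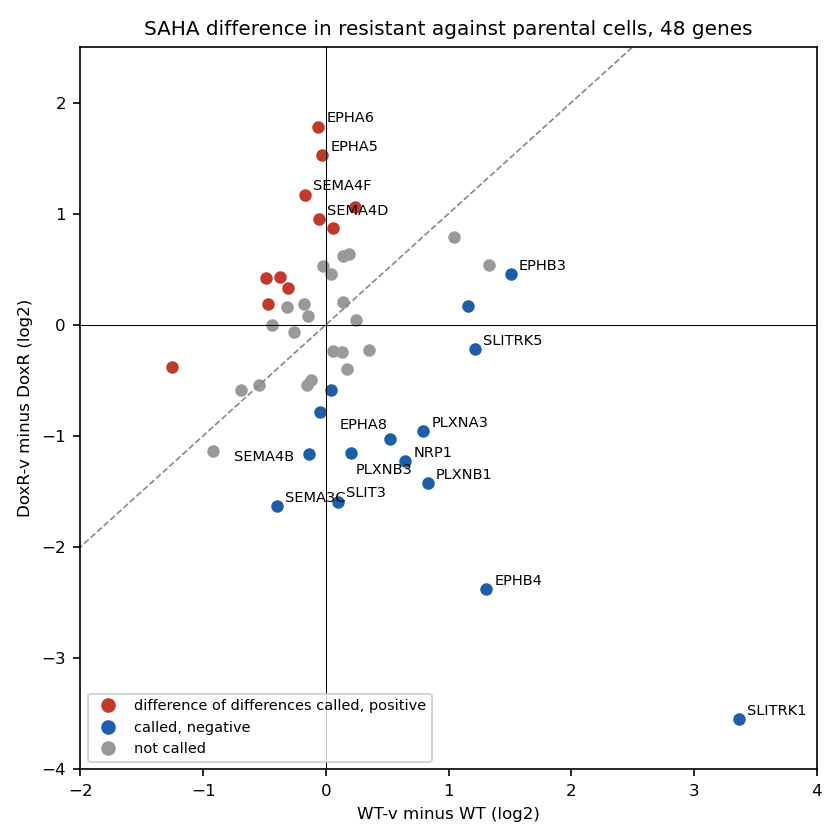
Log2 difference DoxR-v minus DoxR (y axis) against the log2 difference WT-v minus WT (x axis) for the 48 tested genes. Red and blue points had a positive or negative interaction called by limma, grey points none, and the dashed line marks equal differences. SLITRK1 and EPHB4 lie far to the lower right, and EPHA6 and EPHA5 lie high near 0 on the x axis.

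Downstream genes of each pathway were counted against WT in the same way, and their counts can be read against the all-gene shares of 12.6% higher and 11.8% lower in DoxR-v, 17.1% and 16% in DoxR, and 14% and 12.3% in WT-v. Of 15 tested semaphorin and plexin effectors, 3 were higher and 4 lower in DoxR-v than in WT, 2 and 5 in DoxR, and 2 and 4 in WT-v. The Src family kinase gene FYN fell in DoxR-v (log2 -1.80, adjusted p = 2.05e-06) and in DoxR (log2 -1.13), and the guanine exchange factor gene FARP1 fell in DoxR-v (log2 -1.04), DoxR (log2 -1.46) and WT-v (log2 -1.12). DPYSL4, a collapsin response mediator, was higher in DoxR-v (log2 1.19) and lower in DoxR (log2 -0.96). Of 11 tested slit and ROBO effectors, 1 was higher and 1 lower in DoxR-v, 5 and 1 in DoxR, and 4 and 1 in WT-v. In DoxR the actin regulator gene ENAH (log2 1.27, adjusted p = 1.17e-05) and SRGAP2, a Rac GTPase-activating protein that binds ROBO1 (log2 1.11), were among the rises, with a list median of 0.56 beside 0.0095 over all genes.

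Of 10 tested ephrin and Eph effectors, 1 was higher and 1 lower in DoxR-v, 1 and 1 in DoxR, and 1 was higher in WT-v. The adaptor gene NCK2 fell in DoxR-v (log2 -1.52, adjusted p = 5.57e-05), and TIAM1, a Rac activator, rose in DoxR (log2 1.44, adjusted p = 5.93e-05). Of 7 tested other netrin and RGM ligands and receptors, 3 were higher in DoxR-v, 4 were higher in DoxR, and in WT-v 2 were higher and 1 lower. NTNG1, which encodes the membrane-tethered netrin-G1, rose in DoxR-v (log2 2.08, adjusted p = 3.51e-05), DoxR (log2 3.24, adjusted p = 3.14e-07) and WT-v (log2 2.43, adjusted p = 1.13e-05). Its receptor gene LRRC4C rose in DoxR-v (log2 1.81, adjusted p = 2.42e-06), but no WT array was detected, so this is not a measured size. RGMA, a repulsive ligand of neogenin, rose in DoxR-v (log2 1.72) and WT-v (log2 2.10).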

How the data were processed

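RNA of the 12 samples was hybridised to Illumina HumanHT-12 v4 bead arrays. The deposited table held non-normalized probe intensity and, per array, a deposited detection p-value against negative control probes. A second deposited table held the authors' normalized intensity, made per the submitters' processing notes with lumi 2.13.3 in R 3.0.1, and was used only as an alternative. Intensities were background corrected by normexp with the detection p-values (offset 16), quantile normalized and taken to log2. Of 47323 probes, the 21609 detected on any array (threshold 0.01) were fitted with limma 3.58.1 in R 4.3.3 over all 12 arrays, with no covariate and Benjamini-Hochberg adjustment over all fitted probes. A call needed an adjusted p below 0.1 and a fold above 1.5. Where a gene had several tested probes, the brightest on average stood for it. Levels of different probes are not comparable, and the number of arrays limits the precision. Values on every array were given for up to 6 called genes each way per comparison with WT whose groups did not overlap, with the largest changes, and for up to 4 each way in the other comparisons. Other called genes were named with a difference or counted, ligand and receptor pairs could be named together, and each effector list has up to 4 named genes, by adjusted p. The gene families, effector lists and marker lists were chosen with earlier results of these data known. Alternatives changed the scaling, background correction, filter, probe summary, thresholds and replicate block, or left out 1 array. 1 effector list is not reported here. The fit was tested on simulated data. Slide and scan batches were not given in the sources used here.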

Additional observations from a re-analysis of the deposited data

Results flagged for a closer look

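For 26 genes the SAHA difference in the resistant lines (DoxR-v minus DoxR) differed from that in the parental lines (WT-v minus WT) by limma's test of the difference itself, with the thresholds used for the other comparisons. All values are log2 differences of differences. Negative values were found for SLITRK1 (-6.92), EPHB4 (-3.68), PLXNB1 (-2.26), NRP1 (-1.87), PLXNA3 (-1.75), SLIT3 (-1.69), EPHA8 (-1.55), SLITRK5 (-1.43), PLXNB3 (-1.36), SEMA3C (-1.23), EPHB3 (-1.05), SEMA4B (-1.03), SLITRK6 (-0.98), EFNA4 (-0.74) and SEMA4C (-0.62). Positive values were found for EPHA6 (1.85), EPHA5 (1.56), SEMA4F (1.34), SEMA4D (1.01), SLIT2 (0.91), EPHA10 (0.87), SEMA3A (0.82), SLITRK3 (0.82), SEMA3E (0.80), PLXND1 (0.66) and UNC5A (0.64). Not measured sizes are the values of SLITRK1, EPHB4, PLXNB1, EPHA8, PLXNB3, SEMA3C, EPHB3, SLITRK6, EFNA4, EPHA6, EPHA5, SEMA4F, SLIT2 and SLITRK3. By the probe that stands for each, at least 1 group had no detected array. The other probes of EPHA8 (0.71), SEMA3E (-0.57), SEMA4F (-0.25) and SEMA4B (-0.24) were not called, and that of NRP1 was called with the opposite sign (1.31). Of 19 alternatives, 12 of them leaving out 1 array, 15 ended the call of UNC5A, 14 that of SEMA3E, 10 that of PLXND1 and 9 that of SEMA4C. With 1 array left out, their values ran between 0.46 and 0.88, 0.55 and 1.07, 0.46 and 0.82, and -0.77 and -0.44, and 10, 9, 6 and 6 of those 12 fits ended the call. EFNA4 lost its call without WT-v replicate 1 (-0.58). No group held enough arrays for a test of outlying samples.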

How the results depend on the processing

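Counts of called genes are given as higher and lower of the tested axon guidance genes. On the authors' normalized values they were 5 and 4 in DoxR against WT, 1 and 3 in DoxR-v against WT, 2 and 0 in WT-v against WT, 0 and 3 in DoxR-v against DoxR, 1 and 3 in DoxR-v against WT-v, and 0 and 5 in the interaction. The calls that ended there included all those of EPHA5 and EPHA6, and those of EPHB4 except the interaction. They also included those of PLXNB1, SEMA3A and SEMA3C in DoxR against WT. Without a fold threshold, limma's unadjusted p on the authors' normalized values was below 0.05 for 20 and 14, 11 and 8, 10 and 7, 11 and 17, 6 and 12, and 11 and 15 in the same order. Without background correction they were 7 and 5, 5 and 4, 4 and 1, 3 and 7, 2 and 4, and 4 and 9 in the same order. With thresholds of 0.05 and 2-fold they were 12 and 5, 6 and 3, 7 and 1, 4 and 10, 3 and 4, and 4 and 12. Median scaling gave 19 and 7, 13 and 3, 15 and 1, 12 and 12, 6 and 12, and 6 and 18, and put the median log2 difference of all probes from WT at 0.261 in DoxR-v, 0.131 in DoxR and 0.244 in WT-v. Leaving out 1 array at a time gave 18 to 20 and 10 to 12, 8 to 10 and 6 to 7, 8 to 11 and 3 to 4, 8 to 10 and 12 to 16, 5 to 7 and 8 to 12, and 8 to 11 and 13 to 16. Except under those stricter thresholds, where single genes were not followed, SLITRK1 kept its calls in DoxR and WT-v against WT, in DoxR-v against DoxR and WT-v, and in the interaction under each setting run. After the mean of each group was subtracted, the 18 same-numbered pairs of arrays from different groups correlated at -0.325 to 0.167. Their mean was -0.0384, against 0.019 for pairs with other numbers. These values gave no sign that replicate numbers paired the samples, but 3 arrays per group cannot exclude a pairing. With the replicate block the counts were 20 and 12, 9 and 6, 10 and 3, 9 and 12, 5 and 12, and 9 and 15. The causes of these changes were not tested. Low signal over background limits the genes given as bounds.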
